A study of Mus musculus with 32 samples.

Results

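The comparison described here is of LSK cells 7 days after tamoxifen was given to delete Jak2V617F, set against LSK cells of vehicle-treated mice. LSK cells are the lineage negative, Sca1 positive, Kit positive cells of the bone marrow, a sort that holds the blood stem cells and the multipotent progenitors. The members are 8 of the 32 RNA sequencing libraries of the series. They were taken by the cell type, treatment, day and batch in the sample labels, and comprised 4 tamoxifen day 7 libraries and 4 day 0 vehicle libraries of batch A. The genotype of every mouse is given as Jak2v617f. In all groups the mutation had been switched on outside the body with mRNA of the Dre recombinase, and the cells had then been transplanted into lethally irradiated recipients. Tamoxifen activated Cre, which removes the mutant allele in the treated mice. The sources used here do not give the Cre driver, the strain and age of the mice, the tamoxifen dose or the share of host cells left in the recipients. No group received tamoxifen without the deletion and the vehicle mice were sampled at day 0, so deletion, the drug and the elapsed time cannot be told apart. For comparison, LSK cells were also sorted after 3 days of tamoxifen (3 libraries, batch A), from batch C vehicle mice at day 0 (2 libraries) and after 7 days of the JAK inhibitor ruxolitinib (3 libraries, batch C), and megakaryocyte-erythroid progenitors (MEP cells) from the same design (3 vehicle libraries of batch A and 3 day 7 libraries).

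JAK2 is the tyrosine kinase that relays signals from the receptors for erythropoietin and several other cytokines. The V617F form signals without the cytokine, largely through the transcription factor STAT5, and causes myeloproliferative neoplasms, in which mutant stem cells overproduce red cells, platelets or granulocytes. STAT5 switches on its own brakes, among them the SOCS-box proteins CISH and SOCS2, so the messages of these genes are widely used as a readout of JAK signalling.

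Levels below are CPM, the usual read counts per unit of TMM-scaled library size, given for replicates 1, 2, 3 and 4 in that order, and differences are fitted log2 changes with their standard error (SE), n = 4 against 4 unless stated. A gene was called where the Benjamini-Hochberg adjusted p of edgeR's quasi-likelihood test over all genes was under 0.05. The labels give animal numbers and nothing on litters or sorting days, so p-values measure the spread between these libraries. The number 18 stands on both vehicle replicate 2 and day 7 replicate 2, and whether it is the same mouse is not stated. In bulk RNA of sorted cells, fewer cells of a type and less RNA per cell cannot be told apart.

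The libraries differed in ways that the groups do not explain. Vehicle replicate 2 held 28838622 counts and 16096 genes at 1 CPM or more, against 13392754 to 15280571 counts and 21492 to 21995 genes in the other 3 vehicle libraries. The day 7 libraries held 16089135 to 18302675 counts and 19985 to 21316 genes. On the second principal component of the 16 LSK libraries, which took 17.9% of the variance, day 7 replicates 1, 2 and 3 lay at 30.4, 48.1 and 57.4, while day 7 replicate 4 lay at -7.55, within the range of the vehicle libraries. Vehicle libraries also differed in markers of other cells. The summed level of 10 eosinophil genes was 6455 and 4569 CPM in vehicle replicates 1 and 3 and 140 and 62.9 CPM in replicates 2 and 4, against 190 to 438 CPM at day 7. For 17 macrophage genes vehicle replicate 3 held 6903 CPM and the others 301 to 673 CPM, against 223 to 596 CPM at day 7. For 18 B and plasma cell genes vehicle replicate 4 held 11670 CPM and the others 657 to 3274 CPM, against 366 to 666 CPM at day 7. None of these 3 lists had a member at 0 in every library, and their part in the results below was not tested.

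The gate was checked on its own genes. Kit, the receptor for stem cell factor, ranged from 449 to 1369 CPM in vehicle and from 795 to 1281 CPM at day 7. Ly6a, which encodes Sca-1, was at 84.7, 183, 55.7 and 142 CPM in vehicle and at 45.2, 58.4, 37.1 and 29.3 CPM at day 7 (log2 change -1.45 ± 0.39 SE, adjusted p = 0.17). Vehicle replicate 3 alone fell within the day 7 range for Ly6a. The T cell gene Cd3e stayed between 1.44 and 2.77 CPM and the B cell gene Ms4a1 between 0.913 and 7.84 CPM over all 8 libraries. The macrophage gene Emr1 reached 121 CPM in vehicle replicate 3 and was at 0.870 to 17.9 CPM in the other 7 libraries.

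Jak2 itself (chr19:29251828-29313080, mm10) was at 17.6, 24.2, 18.2 and 31.5 CPM in vehicle and at 14.3, 18.2, 15.4 and 16.3 CPM at day 7. The difference, -0.51 ± 0.23 SE, did not pass the test (adjusted p = 0.50). The groups overlapped, because day 7 replicate 2 was level with vehicle replicates 1 and 3. Counts are summed over the whole gene and the sources used here do not give the part that Cre removes, so the Jak2 level does not check the deletion.

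Of 26930 genes tested, 28 were called, 0.104% of them. They were 15 higher genes (0.0557%) and 13 lower genes (0.0483%). The 4 day 7 libraries lay above all vehicle libraries in 361 genes (1.34%) and below all of them in 586 genes (2.18%). At an unadjusted p under 0.05 there were 361 higher genes (1.34%) and 2044 lower genes (7.59%), and all genes tested had a median log2 change of -0.09. Of the 15 higher genes 8 were on the lists of granulocyte and monocyte progenitor genes and of late neutrophil genes. The lower genes included an inhibitor induced by STAT5 (Socs2), interferon-inducible GTPases, a serine protease inhibitor and genes of red cells. The calls were sensitive to single libraries. Without vehicle replicates 1, 2, 3 and 4 in turn 73, 53, 10 and 7 genes were called, and without day 7 replicates 1, 2, 3 and 4 in turn 2, 5, 4 and 911. S100a8 alone was called in 8 of 8 of these fits, Gzmb in 6, and Socs2, Serpina3f, S100a9 and Chchd7 in 5.

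**Figure D1:**
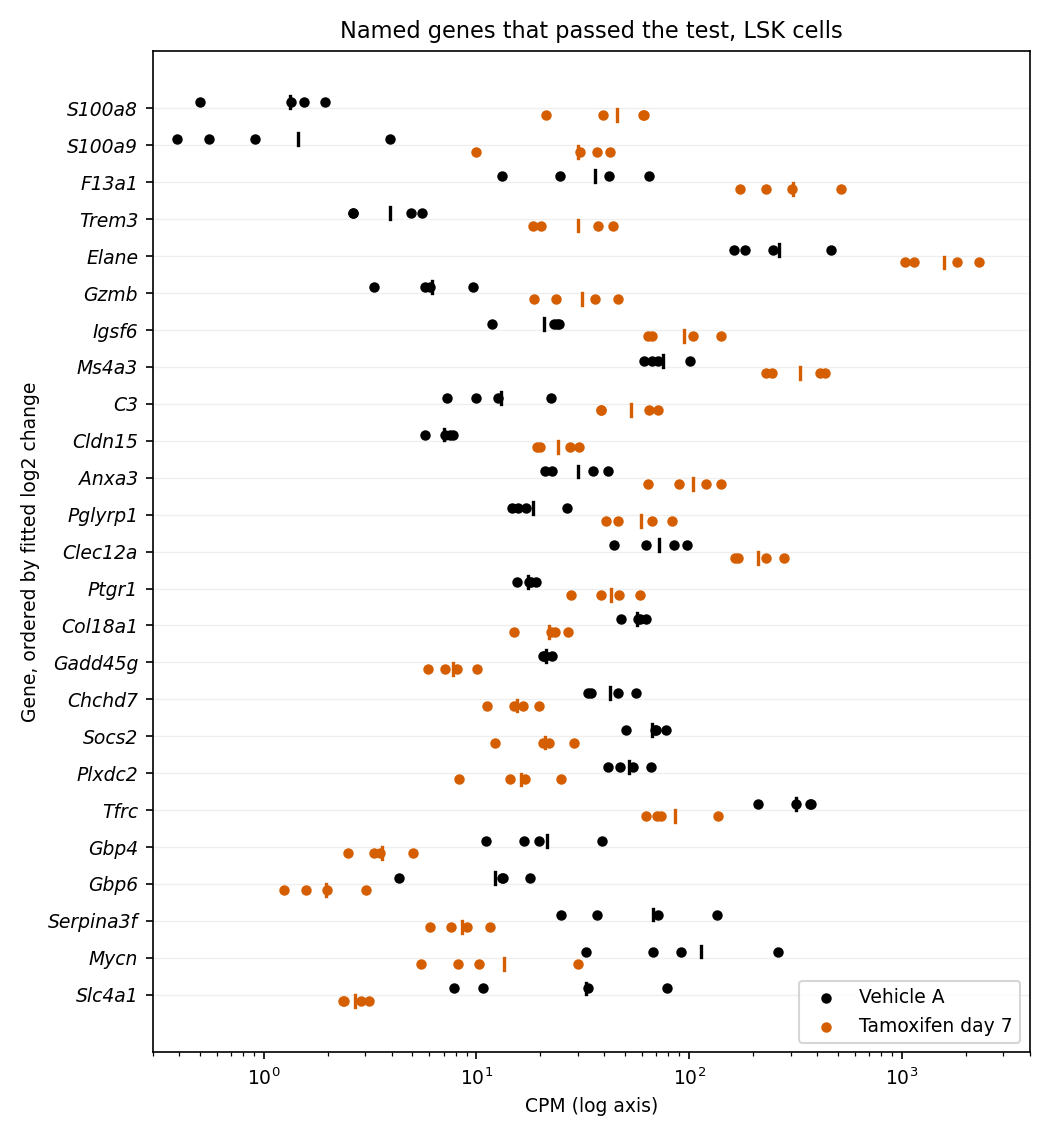
Level in CPM (log axis) of the 25 named genes that passed the test, with 1 point per LSK library, vehicle A in black and tamoxifen day 7 in orange, and a vertical tick at each group mean. In every gene shown the 4 points of one group lie to one side of the 4 points of the other, which the rule for naming required.

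Promoters are shown where data bear on JAK-STAT output. STAT factors bind the spaced palindrome TTCNNNGAA, and Serpina3f, Serpina3g and Cish, whose levels are given below, were chosen for printing because their windows held it. The windows run from 250 bases before to 50 bases after the RefSeq start (GRCm38.p6, the mm10 assembly), plus strand, with the motif in capitals: chr12:104214294-104214593 for Serpina3f, chr12:104235897-104236196 for Serpina3g and chr9:107296409-107296708 for Cish.
Serpina3f: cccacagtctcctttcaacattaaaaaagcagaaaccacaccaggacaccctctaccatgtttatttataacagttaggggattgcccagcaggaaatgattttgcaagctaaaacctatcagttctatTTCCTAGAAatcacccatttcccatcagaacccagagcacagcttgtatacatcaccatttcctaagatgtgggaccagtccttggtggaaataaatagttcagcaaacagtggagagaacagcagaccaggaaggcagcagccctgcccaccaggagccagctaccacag
Serpina3g: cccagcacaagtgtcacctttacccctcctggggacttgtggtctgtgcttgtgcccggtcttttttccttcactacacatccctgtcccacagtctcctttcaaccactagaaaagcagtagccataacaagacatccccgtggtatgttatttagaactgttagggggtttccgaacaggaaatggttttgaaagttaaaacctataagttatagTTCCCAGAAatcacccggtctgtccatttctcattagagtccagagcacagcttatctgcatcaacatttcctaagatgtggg
Cish: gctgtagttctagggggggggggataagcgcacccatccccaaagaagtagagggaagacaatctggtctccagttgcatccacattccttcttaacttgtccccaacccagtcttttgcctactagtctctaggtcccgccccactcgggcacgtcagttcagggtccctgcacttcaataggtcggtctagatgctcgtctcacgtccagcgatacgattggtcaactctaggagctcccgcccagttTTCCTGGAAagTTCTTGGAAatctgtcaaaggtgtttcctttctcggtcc
The match lay at position -121 in Serpina3f and at -33 in Serpina3g, counted from the start, and Cish held 2 matches at and just after its start. Serpina3f has 2 RefSeq starts, and the window of the first is printed. Counted from the other start, the same match lay at -210. Both strands were searched, and the motif reads the same on each. It was found for 1344 of 14827 genes tested that had a window (9.06%), for 1 of 5 called lower genes with a window (Serpina3f) and for 1 of 13 called higher genes with a window (Gzmb, at position 37). The interferon-response motif, GAAA, any 2 bases and GAAA again, whose matches may overlap the first motif, was found for 3.84% of genes with a window and for 0 of the called genes with one. A match is only a description of the letters.

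Among the brakes and targets of STAT5, Socs2 and Gadd45g fell. Socs2 (chr10:95385362-95417180), an inhibitor of cytokine and growth hormone receptors, was at 77.9, 69.1, 50.7 and 70.2 CPM in vehicle and at 28.8, 21.98, 12.3 and 20.5 CPM at day 7. The change was -1.68 ± 0.25 SE (adjusted p = 0.0219), and the highest day 7 library lay well below the lowest vehicle library. Gadd45g (chr13:51846678-51848468), a stress- and cytokine-induced growth arrest gene, was at 20.6, 20.8, 22.8 and 21.0 CPM in vehicle and at 8.11, 7.13, 5.94 and 10.02 CPM at day 7 (-1.45 ± 0.27 SE, adjusted p = 0.0417). Vehicle libraries were close together for Gadd45g, and no day 7 library reached them.

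Other genes of this kind were lower in all day 7 libraries without passing the test. Cish, the SOCS-family inhibitor, was at 16.1, 34.8, 18.7 and 22.1 CPM in vehicle and at 9.10, 11.5, 4.26 and 5.17 CPM at day 7 (-1.61 ± 0.38 SE, adjusted p = 0.12). Podxl, a sialomucin, was at 4.62 to 8.44 CPM in vehicle and at 1.19 to 3.66 CPM at day 7 (-1.43 ± 0.37 SE, adjusted p = 0.15). Osm, the cytokine oncostatin M, was at 21.9 to 41.5 CPM and 14.6 to 18.3 CPM (-0.79 ± 0.28 SE, adjusted p = 0.28). Pim2, a survival kinase chosen for mention after its values were seen, was at 67.1, 430, 62.6 and 173 CPM in vehicle and at 7.06, 2.499, 3.40 and 31.6 CPM at day 7 (-4.04 ± 0.78 SE, adjusted p = 0.0558). Pim2 was called when day 7 replicate 4, its highest treated library, was left out, and when only expressed genes were tested.

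The remaining genes of the STAT5 panel overlapped between the groups. Socs3, the inhibitor of gp130 receptors, had a fitted change of -4.71 ± 1.16 SE (adjusted p = 0.14) that rested on vehicle replicate 2 at 53.5 CPM, the other vehicle libraries being at 0.279 to 5.48 CPM and the day 7 libraries at 0.185 to 0.837 CPM. Id1, an inhibitor of differentiation factors, was at 2.47 to 7.70 CPM in vehicle and 0.756 to 3.40 CPM at day 7 (-1.79 ± 0.53 SE, adjusted p = 0.21). The survival gene Bcl2l1 changed by -0.53 ± 0.21 SE, the kinase Pim1 by -0.49 ± 0.47 SE, the cyclin Ccnd2 by -0.40 ± 0.24 SE and Myc by -0.37 ± 0.45 SE, with adjusted p from 0.40 to 0.9998. Over the whole list of 30 tested STAT5 and cytokine-induced targets, 0 members were called higher and 2 lower. In 7 members all day 7 libraries lay below all vehicle libraries and in 1 member above, that one being the neutrophil gene Lcn2. The median change of the list was -0.97, beside -0.09 for all genes tested, and 27 members had a negative and 3 a positive value. DESeq2, which called 278 of all genes lower (1.03%) and 56 higher (0.208%), called 6 members lower (Cish, Gadd45g, Id1, Pim2, Podxl and Socs2) and 1 higher (Lcn2). Of 28 JAK, STAT and cytokine receptor genes 0 were called by edgeR and 11 were lower and 0 higher at an unadjusted p under 0.05, with 2 called lower by DESeq2 (Epor and Il7r).

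Interferon-inducible GTPases, which disrupt the vacuoles of intracellular microbes, fell in part. Gbp4 (chr5:105115767-105139586) was at 19.6, 11.1, 38.8 and 16.8 CPM in vehicle and at 3.30, 3.52, 2.48 and 5.01 CPM at day 7 (-2.59 ± 0.41 SE, adjusted p = 0.0219). Gbp6, from the same cluster (chr5:105270702-105293698), was at 17.9, 13.2, 13.3 and 4.31 CPM in vehicle and at 1.99, 1.57, 1.24 and 3.03 CPM at day 7 (-2.63 ± 0.45 SE, adjusted p = 0.0327). In both genes the day 7 libraries lay below all vehicle libraries, by a narrow margin from vehicle replicate 4 for Gbp6. Near-identical members of this family and of the Serpina3 family can hold each other's reads.

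Of the 16 GTPases tested, 0 were called higher and 2 lower, 5 had day 7 libraries below all vehicle libraries and 0 above, and the median change was -0.90. Iigp1 was at 66.7 to 139 CPM in vehicle and 21.6 to 45.1 CPM at day 7 (-1.61 ± 0.38 SE, adjusted p = 0.11), and Igtp at 102 to 222 CPM and 80.2 to 92.7 CPM (-0.85 ± 0.28 SE, adjusted p = 0.24). Gbp3 and Ifi47 had positive values, 0.23 ± 0.32 SE and 0.12 ± 0.28 SE. The wider list of interferon-stimulated genes gave other values. Of 44 tested members 0 were called by edgeR or DESeq2, 0 were higher and 1 lower at an unadjusted p under 0.05, and the median change was -0.03.

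Serpina3f (chr12:104214544-104221129), a secreted serine protease inhibitor of the murine Serpina3 cluster, was at 36.7, 71.7, 25.0 and 136 CPM in vehicle and at 6.07, 9.07, 7.61 and 11.5 CPM at day 7. It fell by 2.97 ± 0.43 SE on the log2 scale (adjusted p = 0.0219). The size leaned on vehicle replicate 4 and was -2.35 without it (adjusted p = 0.0232). Its neighbour Serpina3g (chr12:104236245-104241939) was at 773, 1862, 376 and 1215 CPM in vehicle and at 306, 357, 282 and 246 CPM at day 7, with no overlap (-1.83 ± 0.39 SE, adjusted p = 0.0750). Serpina3g did not pass the test over all genes and did when only expressed genes were tested (-1.68 ± 0.32 SE, adjusted p = 0.0266). The other 9 members of the family stayed at a mean of 3.10 CPM or less in both groups.

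**Figure D2:**
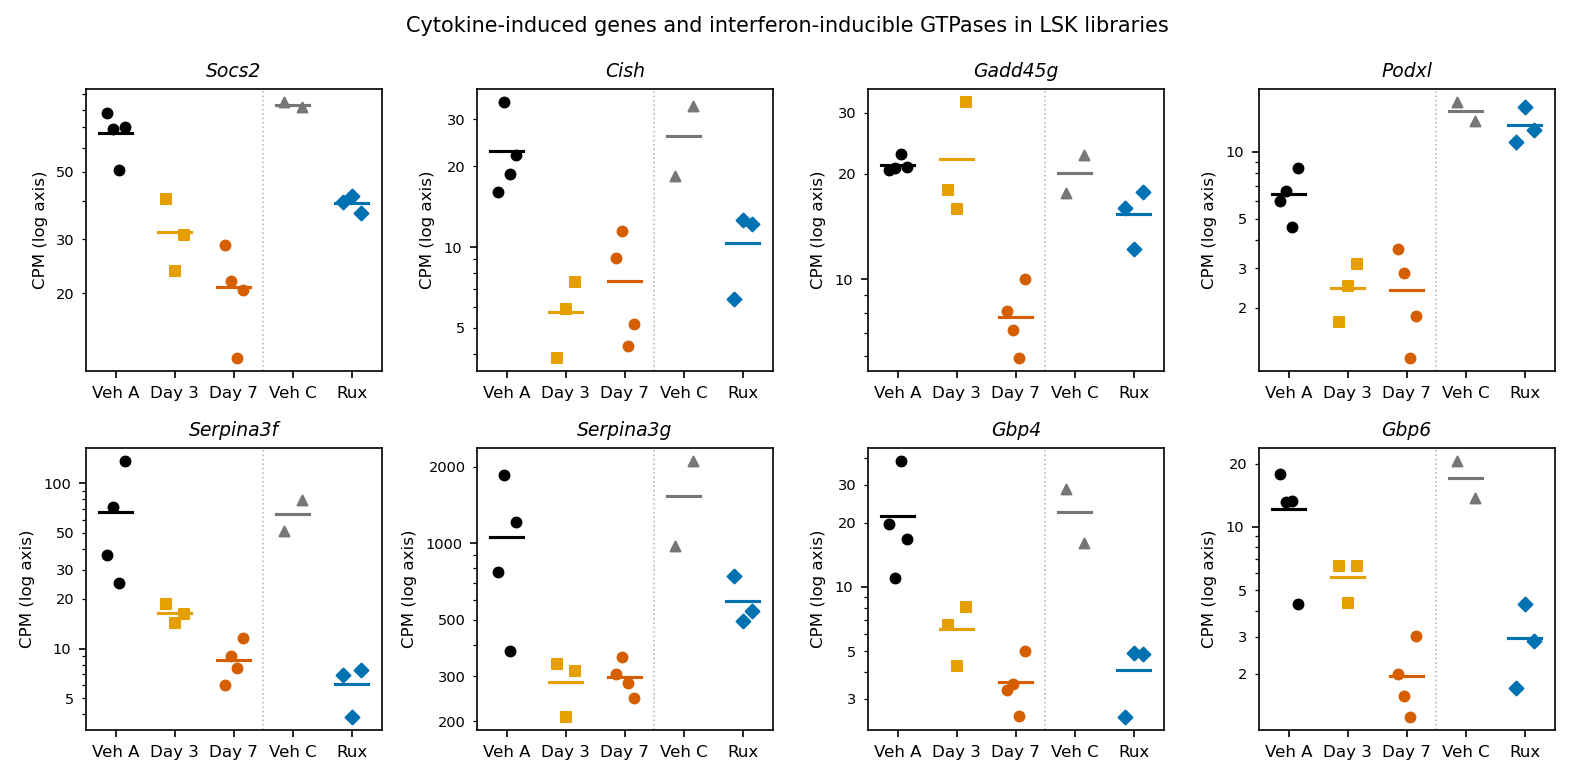
Level in CPM (log axis) of 8 genes in each LSK library of 5 groups: vehicle batch A, tamoxifen day 3 and day 7, and, right of the dotted line, vehicle batch C and ruxolitinib, with a bar at each group mean. Socs2, Serpina3f and Gbp4 lie lower at day 7 than in vehicle A without overlap, and Podxl overlaps between ruxolitinib (11.1 to 15.9 CPM) and vehicle C (13.8 and 16.7 CPM).

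Genes of granulocytes and their precursors rose in part, 4 of 30 progenitor genes and 4 of 17 late neutrophil genes. S100a8 (chr3:90668978-90670035) encodes one chain of calprotectin, the antimicrobial calcium-binding complex that fills the neutrophil cytosol. It was at 0.502, 1.35, 1.93 and 1.54 CPM in vehicle and at 60.8, 61.6, 21.3 and 39.6 CPM at day 7 (5.10 ± 0.49 SE, adjusted p = 0.000134). S100a9 (chr3:90692632-90695721), the other chain, was at 0.391, 0.913, 3.92 and 0.554 CPM in vehicle and at 42.3, 36.8, 9.98 and 30.5 CPM at day 7 (4.36 ± 0.71 SE, adjusted p = 0.0256). Day 7 replicate 3 was the lowest treated library for both chains, and still lay above every vehicle library. Without vehicle replicate 3, the highest vehicle library, the S100a9 change was 5.57 (adjusted p = 0.0017).

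Some granule genes of promyelocytes, and the membrane protein gene Ms4a3, were far more abundant. Elane (chr10:79886247-79888215), neutrophil elastase, was at 183, 463, 162 and 248 CPM in vehicle and at 2302, 1041, 1812 and 1145 CPM at day 7 (2.58 ± 0.47 SE, adjusted p = 0.0388). Ms4a3, a membrane protein of granulocyte and monocyte progenitors, was at 66.9, 101, 61.6 and 71.5 CPM and then at 436, 245, 413 and 230 CPM (2.14 ± 0.38 SE, adjusted p = 0.0356). Mpo, myeloperoxidase, chosen for mention after its values were seen, was at 749, 2718, 812 and 1430 CPM in vehicle and at 10410, 5285, 9785 and 6953 CPM at day 7 (2.51 ± 0.51 SE, adjusted p = 0.067). For these genes day 7 replicates 1 and 3 were the 2 highest libraries, and vehicle replicate 2 was the highest of its group. Prtn3, another granule gene named after its values were seen, overlapped between the groups. It was at 152, 726, 112.5 and 240 CPM in vehicle and at 1137, 503, 985 and 478.5 CPM at day 7 (1.33 ± 0.55 SE, adjusted p = 0.41).

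F13a1 (chr13:36867178-37050244), the coagulation factor XIII A chain of monocytes and platelets, rose from 13.2, 65.1, 24.8 and 41.9 CPM to 518, 230, 304 and 174 CPM (3.08 ± 0.49 SE, adjusted p = 0.0219). Trem3, a myeloid activating receptor, rose from 2.62 to 5.54 CPM in vehicle to 18.4 to 43.7 CPM (2.93 ± 0.50 SE, adjusted p = 0.0327). Anxa3, an annexin of neutrophil granules, rose from 21.0 to 41.6 CPM to 64.2 to 141 CPM (1.78 ± 0.33 SE, adjusted p = 0.0428). Pglyrp1, a peptidoglycan-binding protein of neutrophil granules, rose from 14.7 to 26.6 CPM to 40.7 to 82.8 CPM (1.68 ± 0.29 SE, adjusted p = 0.0327). The antimicrobial peptide gene Camp was called at low levels, 0.348 to 1.07 CPM in vehicle and 2.86 to 9.52 CPM at day 7 (2.92 ± 0.54 SE, adjusted p = 0.0417). Camp falls outside the rule for naming because of its low mean and was named after its values were seen.

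Of the 30 granulocyte and monocyte progenitor genes tested, 4 were called higher (F13a1, Elane, Ms4a3 and Anxa3) and 0 lower, 10 lay above all vehicle libraries and 0 below, and the median change was 1.01. In this list 7 members had a negative value and 2 were lower at an unadjusted p under 0.05. Irf8, a factor of monocyte and dendritic cell development, was at -1.52 ± 0.58 SE (adjusted p = 0.35) and was called lower without day 7 replicate 4. Of 17 late neutrophil genes tested 4 were called higher (S100a8, S100a9, Pglyrp1 and Camp) and 0 lower, 7 lay above all vehicle libraries and 0 below, 3 had a negative value with 1 lower at an unadjusted p under 0.05, and the median change was 1.55. Restricting the test to 9684 expressed genes, of which 64 were called (0.661%) and 41 of these higher (0.423%), added Mpo, Ctsg and Ccr2 to the called members of the first list. The summed level of the first list was 3497, 9073, 4189 and 4424 CPM in vehicle and 21400, 11470, 19070 and 13100 CPM at day 7. The late neutrophil genes summed to 53.9 to 72.5 CPM in vehicle and 157 to 323 CPM at day 7, a small fraction of the first sum. Mature granule genes such as Ngp, at 8.42 to 34.4 CPM at day 7 (2.44 ± 0.59 SE, adjusted p = 0.13), and Lcn2, at 6.10 to 25.2 CPM (3.06 ± 0.65 SE, adjusted p = 0.0739), were above all vehicle libraries without passing the test.

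Genes shared with mast cells and basophils were also higher in part. Gzmb (chr14:56258838-56262260), granzyme B, rose from 3.29, 5.74, 6.07 and 9.61 CPM to 46.6, 18.6, 23.6 and 36.0 CPM (2.34 ± 0.36 SE, adjusted p = 0.0219). Cpa3, the mast cell carboxypeptidase, was at 37.7 to 104 CPM in vehicle and 148 to 314 CPM at day 7 (1.81 ± 0.39 SE, adjusted p = 0.0758). Hdc, which makes histamine, was at 38.8 to 87.4 CPM and 120 to 241 CPM (1.75 ± 0.36 SE, adjusted p = 0.067). Of 17 genes on that list 1 was called higher and 0 lower, 7 lay above all vehicle libraries and 0 below, and the median change was 0.66. In 6 of these 17 genes the value was negative. At an unadjusted p under 0.05, 7 of the 17 were higher and 1 lower. The summed level of 18 T and NK cell genes, which do not include Gzmb, was 301 to 547 CPM in vehicle and 554 to 814 CPM at day 7, and the cytotoxic granule gene Nkg7 made up most of it, with means of 313.7 CPM and 621.8 CPM. Of those 18 genes 0 were called by edgeR, and DESeq2 called 1 lower, the interleukin 2 receptor beta chain gene Il2rb (edgeR log2 change -2.85 ± 0.68 SE, adjusted p = 0.12). Their part in the Gzmb value was not tested.

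Other called genes that rose have roles in innate immunity or metabolism. Igsf6, an immunoglobulin-family receptor of myeloid cells, rose from 11.8, 23.3, 24.3 and 23.8 CPM to 141, 67.2, 104 and 64.4 CPM (2.18 ± 0.35 SE, adjusted p = 0.0219). Clec12a, an inhibitory lectin receptor of myeloid cells, rose from 44.5 to 97.5 CPM to 164 to 281 CPM (1.54 ± 0.28 SE, adjusted p = 0.0405). The complement gene C3 rose from 7.302 to 22.3 CPM to 38.4 to 71.5 CPM (2.03 ± 0.37 SE, adjusted p = 0.0388). Both myeloid receptors and C3 were highest in day 7 replicates 1 and 3, as were Elane, Ms4a3 and Mpo. By contrast, day 7 replicate 3 was the lowest treated library for Camp, Ngp and Lcn2. The claudin gene Cldn15 rose by 1.79 ± 0.32 SE, and Ptgr1, a reductase that inactivates leukotrienes and prostaglandins, by 1.29 ± 0.24 SE, with adjusted p of 0.0356 and 0.0417.

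**Figure D3:**
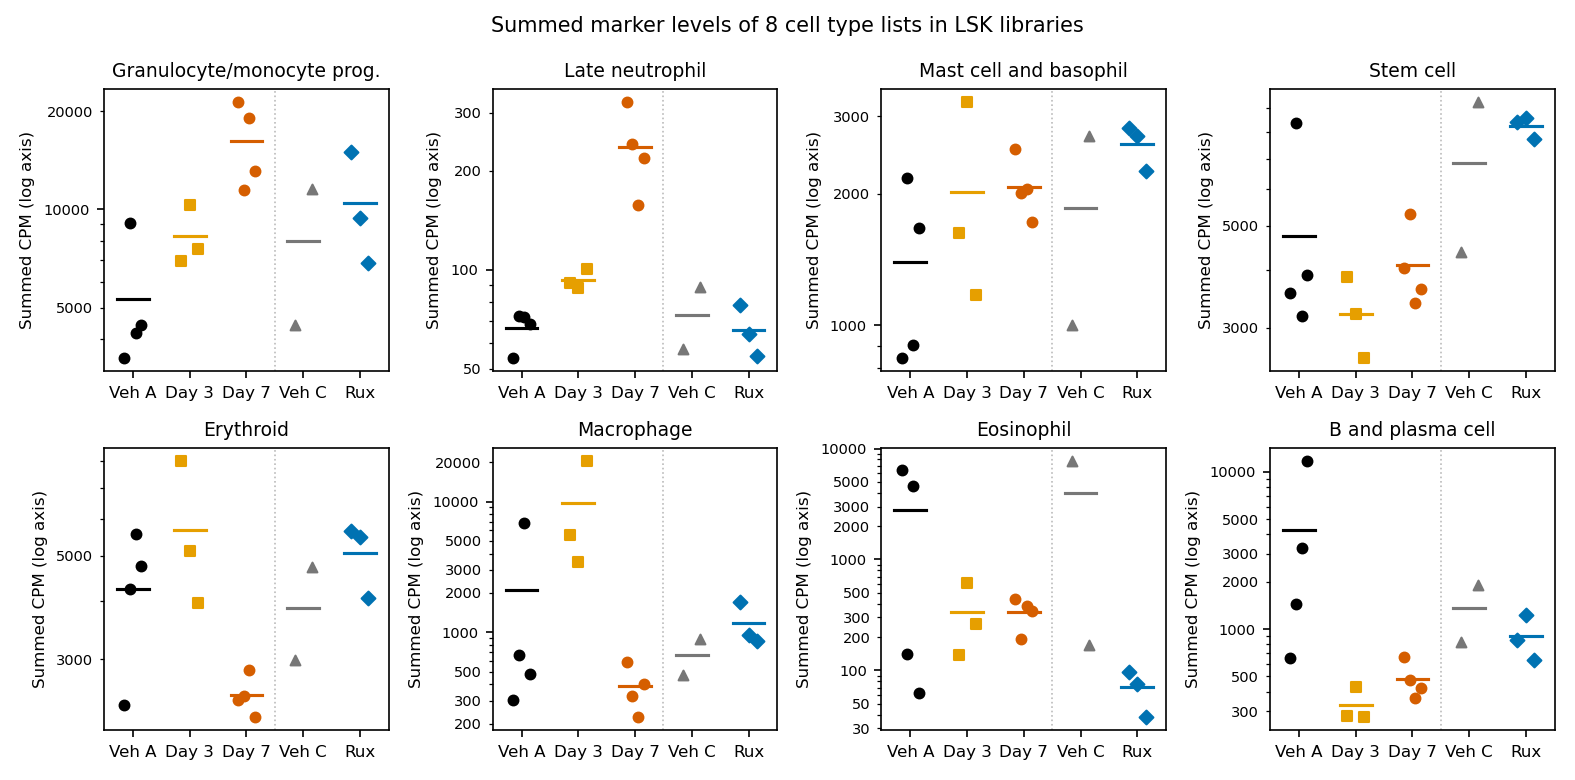
Summed CPM (log axis) of 8 cell type lists in each LSK library of 5 groups, with a bar at each group mean. The granulocyte and monocyte progenitor sum lies between 11470 and 21400 at day 7 and between 3497 and 9073 in vehicle A, while the eosinophil, macrophage and B cell sums spread most widely among the vehicle and day 3 libraries.

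Genes of red cells and of iron uptake fell in part. Slc4a1 (chr11:102348824-102366203), the band 3 anion exchanger of red cells, was at 7.81, 33.4, 79.0 and 10.7 CPM in vehicle and at 2.88, 2.36, 2.37 and 3.13 CPM at day 7 (-3.61 ± 0.63 SE, adjusted p = 0.0344). Without vehicle replicate 3 the change was -2.67 and no longer passed the test (adjusted p = 0.074). Tfrc (chr16:32608920-32632794), the transferrin receptor through which dividing cells and erythroblasts take up iron, was at 210, 317, 370 and 376 CPM in vehicle and at 63.0, 73.6, 136 and 70.5 CPM at day 7 (-1.89 ± 0.33 SE, adjusted p = 0.0327). Tfrc in vehicle was highest in replicates 3 and 4, and day 7 replicate 3 stood above the other treated libraries.

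Of the 38 erythroid genes tested 0 were called higher and 2 lower, 6 lay below all vehicle libraries and 0 above, and 17 were lower at an unadjusted p under 0.05. The list's median change was -0.95 and its summed level was 2393, 4245, 5564 and 4758 CPM in vehicle and 2252 to 2841 CPM at day 7, so vehicle replicate 1 lay within the day 7 range. Epor, the erythropoietin receptor, was at 43.8, 42.0, 89.0 and 90.2 CPM and then at 26.9, 9.44, 5.56 and 23.8 CPM (-2.01 ± 0.41 SE, adjusted p = 0.067). Rhag, the Rhesus-associated glycoprotein, was at 16.1 to 116 CPM and 9.55 to 22.2 CPM (-2.14 ± 0.45 SE, adjusted p = 0.0739). Klf1, the erythroid master regulator, was at 2.46, 53.6, 51.5 and 58.5 CPM in vehicle and at 2.41, 1.57, 2.21 and 23.8 CPM at day 7 (-2.47 ± 0.86 SE, adjusted p = 0.28). Vehicle replicate 1 and day 7 replicate 4 thus each stood apart from their group for Klf1. These 3 genes were chosen after their values were seen. DESeq2 called 8 members of the list lower, among them Epor and Rhag.

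The remaining called genes that fell belong to no common list. Mycn (chr12:12936093-12941914), a MYC family factor of immature cells, was at 32.7, 262, 91.6 and 67.4 CPM in vehicle and at 8.21, 10.3, 5.51 and 30.0 CPM at day 7 (-3.07 ± 0.57 SE, adjusted p = 0.0417). Without vehicle replicate 2 the change was -2.24 (adjusted p = 0.0634), and without day 7 replicate 4 it was -3.83 (adjusted p = 0.000372). Chchd7, a small mitochondrial protein gene, was at 33.5 to 56.2 CPM and 11.2 to 19.7 CPM (-1.45 ± 0.23 SE, adjusted p = 0.0219). Plxdc2, a plexin-domain membrane protein gene, was at 41.5 to 66.4 CPM and 8.31 to 24.9 CPM (-1.70 ± 0.31 SE, adjusted p = 0.0384). Col18a1, which encodes collagen XVIII, was at 47.8 to 62.8 CPM and 15.0 to 26.9 CPM (-1.37 ± 0.25 SE, adjusted p = 0.0405). For Chchd7, Plxdc2 and Col18a1 the vehicle libraries were close together and well above day 7.

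The other 2 called genes, Gm16842 and Gm16879, are annotated as immunoglobulin V and J gene segments of chromosome 12 (chr12:114153180-114153644 and chr12:113429468-113429567), which the rule for naming passes over. Gm16879 was at 10.49, 24.6, 81.2 and 214 CPM in vehicle and at 0.157 to 0.486 CPM at day 7, and Gm16842 at 13.3, 0, 528 and 110 CPM in vehicle and at 0.0523 CPM or less at day 7. In vehicle, Gm16879 was highest in replicate 4, as were the plasma cell genes below, and Gm16842 was highest in replicate 3. Igkc, the kappa light chain, was at 150, 475, 1309 and 7338 CPM in vehicle and at 219, 205, 11.4 and 97.1 CPM at day 7 (-4.12 ± 1.12 SE, adjusted p = 0.18), and Igj, the joining chain, at 93.8, 309, 568 and 3568 CPM and then 5.61 to 47.3 CPM (-5.25 ± 1.10 SE, adjusted p = 0.0712). The part of plasma cells in these values was not tested.

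Programmes of stem cells and of the cell cycle gave few calls. Of 39 stem cell genes tested 0 were called higher and 1 lower (Mycn), with a median of -0.39 and 31 negative values. Among these 39, 11 were lower and 1 higher at an unadjusted p under 0.05, and DESeq2 called 2 lower (Gimap1 and Mycn). Of 24 multipotent and lymphoid-primed progenitor genes 0 were called by edgeR, with 0 above and 3 below all vehicle libraries and a median of -0.47. At an unadjusted p under 0.05, 8 of these 24 were lower and 0 higher, and DESeq2 called 4 lower (Cd79a, Ighm, Igj and Il7r). Of 38 megakaryocyte and platelet genes 0 were called by edgeR, with 6 lower and 0 higher at an unadjusted p under 0.05 and 2 called lower by DESeq2, and the median was -0.31. Of 36 mitosis and spindle genes 0 were called by edgeR or DESeq2, 1 was higher and 2 lower at an unadjusted p under 0.05, and the median was 0.18. Top2a, the topoisomerase of dividing cells, was at 572 to 682 CPM in vehicle and 685 to 907 CPM at day 7 (0.37 ± 0.26 SE, adjusted p = 0.90), and the proliferation marker Mki67 at 200 to 272 CPM and 247 to 335 CPM (0.38 ± 0.24 SE, adjusted p = 0.83). Of 40 DNA replication and nucleotide synthesis genes 0 were called by edgeR or DESeq2, 0 were higher and 3 lower at an unadjusted p under 0.05, and the median was 0.05.

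A large block of genes separated day 7 replicate 4 from the other 3 treated libraries. Without it 911 genes (3.38%) were called, 48 higher (0.178%) and 863 lower (3.2%), and the 28 genes of the full comparison were all among them. Of the 863 lower genes, 849 had been tested and not called in the full comparison, and their median difference from the vehicle mean was -1.57, -2.05 and -2.12 in day 7 replicates 1, 2 and 3 and -0.135 in replicate 4. In the vehicle libraries the medians of these genes ran from -0.459 to 0.645, and at day 3 from -0.244 to 0.199. The 33 genes called higher only without replicate 4 had medians of 1.74, 1.34 and 1.49 in replicates 1, 2 and 3 and of 1.32 in replicate 4. In these medians replicate 4 lay with the other treated libraries for the higher genes and near vehicle for the lower block. Replicates 1, 2 and 3 chose these genes, so their own values are a description. The choice used no MEP library. It used replicate 4 through the condition that the full comparison had not called the gene. That condition favours genes in which replicate 4 lay nearer to vehicle, so its values too are a description.

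Members of the lower block include abundant genes. Stat3, a transcription factor of cytokine signalling, was at 219, 768, 255 and 273 CPM in vehicle and at 54.9, 44.3, 52.5 and 295 CPM at day 7 (-1.76 ± 0.55 SE, adjusted p = 0.22). H2-D1, a class I histocompatibility gene, was at 2276, 5157, 2728 and 2501 CPM in vehicle and at 266, 138, 129 and 2620 CPM at day 7 (-2.01 ± 0.73 SE, adjusted p = 0.31). In both genes day 7 replicate 4 stood within the vehicle range and the other treated libraries far below it. In MEP cells the 849 genes had medians of -1.32, -1.68 and -1.38 in day 7 replicates 1, 2 and 3. MEP day 7 replicate 3 carries the same animal number as LSK day 7 replicate 4, and it lay with the other treated MEP libraries. Between batches of vehicle libraries without treatment the same genes shifted by 0.541 for animal number 12 and 0.193 for animal number 18. Their median GC content was 52.6% (843 genes with a value), beside 48.8% for all genes tested, and the log2 difference between GC-rich and GC-poor genes was -0.578 and -0.436 in day 7 replicates 2 and 3, 0.00151 in replicate 1 and -0.0867 in replicate 4. The part of base composition in this block was not tested.

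**Figure D4:**
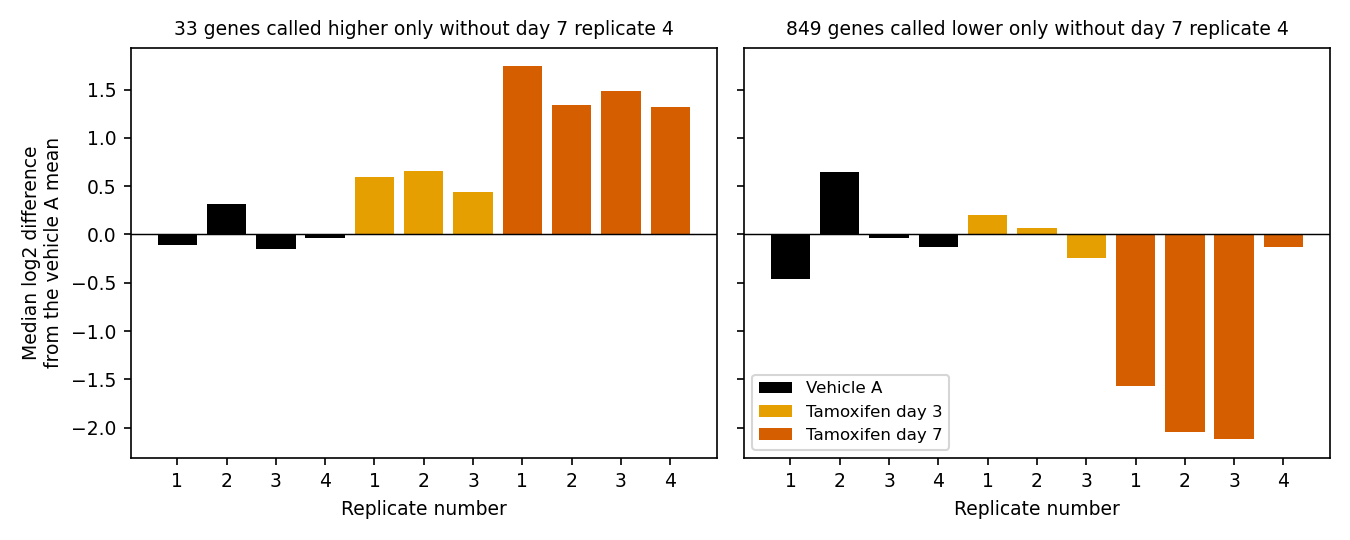
Median log2 difference from the vehicle A mean of the 33 genes called higher (left) and the 849 genes called lower (right) only when day 7 replicate 4 was left out, with 1 bar per LSK library of vehicle A, day 3 and day 7. The bar of day 7 replicate 4 stands at 1.32 beside 1.34 to 1.74 on the left and at -0.135 beside -1.57 to -2.12 on the right.

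The time course was read from a direct test of day 7 against day 3, because each time was otherwise compared with the same vehicle libraries. At day 3 no gene was called against vehicle by edgeR (0%), while 1019 genes had an unadjusted p under 0.05. Between day 7 and day 3, 2 genes differed (0.00743%), and both were named after their values were seen. The mitochondrial 12S ribosomal RNA mt-Rnr1 was at 46.3, 38.4 and 29.6 CPM at day 3 and at 174, 334, 240 and 240 CPM at day 7 (2.69, adjusted p = 0.00113), with vehicle between at 76.3 to 122 CPM. Il18bp, the soluble antagonist of interleukin 18, was at 45.7, 25.1 and 68.99 CPM at day 3 and at 8.32, 7.31, 5.24 and 4.96 CPM at day 7 (-2.85, adjusted p = 0.00404), with vehicle between at 9.05 to 24.3 CPM. The count moved with single libraries and was 797 without day 7 replicate 4, and 80, 60 and 109 without vehicle replicates 1, 2 and 3.

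The genes called at day 7 took varied levels at day 3. S100a8 was at 5.07 to 9.24 CPM at day 3, above the vehicle range and below the day 7 range, and Elane at 182 to 624 CPM. Gzmb, at 22.4 to 45.5 CPM, and Tfrc, at 71.99 to 169 CPM, were within or near the day 7 range already at day 3. Socs2 was at 40.8, 23.7 and 30.9 CPM and Cish at 3.85, 5.87 and 7.41 CPM at day 3. Gadd45g, at 15.8 to 32.2 CPM, was still at the vehicle level at day 3, and its difference between the times was -1.496 (adjusted p = 0.0756). None of these differences between day 7 and day 3 passed the test.

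Ruxolitinib was set against its own batch C vehicle (n = 3 against 2), and the difference between the responses was then tested. Animal numbers 12 and 18 stand on vehicle libraries of both batches, and whether they are the same mice is not stated. The 2 responses may therefore not be fully independent. Against vehicle C, ruxolitinib gave 6 called genes (0.0223%), 2 higher (0.00743%) and 4 lower (0.0149%). Of all genes 1 differed between the responses (0.00371%), the unnamed transcript 3830403N18Rik, and without day 7 replicate 4 the count was 322. Serpina3f was at 51.4 and 79.1 CPM in vehicle C and at 6.95, 3.84 and 7.43 CPM under ruxolitinib (-3.42, adjusted p = 0.0271), beside -2.97 at day 7 of tamoxifen. Gbp4 was at 28.7 and 16.02 CPM and then at 2.45 to 4.88 CPM (-2.46, adjusted p = 0.16), and Socs2 at 84.8 and 81.2 CPM and then at 36.7 to 41.8 CPM (-1.07, adjusted p = 0.43). For Serpina3f, Gbp4 and Socs2 every ruxolitinib library lay below both vehicle C libraries. S100a8 was at 1.48 and 1.82 CPM in vehicle C and at 1.85, 5.95 and 4.40 CPM under ruxolitinib (1.30, adjusted p = 0.54), far from the 21.3 to 61.6 CPM of day 7. The test of the S100a8 difference between the responses did not pass over all genes.

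MEP cells are the nearest comparison, and 130 of 28378 genes (0.458%) differed between the LSK and MEP responses at day 7 by the interaction term of a fit to all 32 libraries, 46 with the larger value in LSK and 84 in MEP. Where 1 animal number stood on both an LSK and a MEP library, that fit treated them as independent. MEP cells alone gave 1569 called genes (5.53%), 278 higher (0.98%) and 1291 lower (4.55%). Some interferon-inducible genes were among the 130 genes that differed between the responses. Passing that test does not mean being called in MEP cells alone, where Serpina3f (adjusted p = 0.0721) and Gbp4 (adjusted p = 0.52) were not. Serpina3f fell in LSK cells and was 1.496 ± 0.49 SE in MEP cells, a difference of -4.39 ± 0.66 SE (adjusted p = 0.000984). Serpina3g differed by -3.66 ± 0.71 SE (adjusted p = 0.0126), Gbp4 by -3.32 ± 0.69 SE (adjusted p = 0.02), Gbp9 by -3.20 ± 0.71 SE (adjusted p = 0.0318) and Iigp1 by -3.81 ± 0.89 SE (adjusted p = 0.0403). Of 16 GTPases 3 differed (Gbp4, Gbp9 and Iigp1), and of 44 interferon-stimulated genes 5 did, all with the lower value in LSK cells. Among the latter, Irf7, the factor that amplifies interferon production, was at -0.28 in LSK and 1.78 in MEP cells (difference -2.01 ± 0.47 SE, adjusted p = 0.0389), and Rtp4 at -0.08 and 3.00 (-3.03 ± 0.68 SE, adjusted p = 0.0321). Slfn2, a schlafen gene, differed by -2.81 ± 0.57 SE (adjusted p = 0.0165). Several of these genes were at low levels in MEP cells. Their MEP means in vehicle and at day 7 were 2.44 and 6.91 CPM for Serpina3f and 1.86 and 3.22 CPM for Gbp4. For Gbp9 they were 1.056 and 3.115 CPM and for Slfn2 1.02 and 3.36 CPM, while Irf7 was at 27.2 and 93.55 CPM.

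Stem and megakaryocyte genes were further classes with differences. Ly6a was at -1.45 ± 0.39 SE in LSK and 5.40 ± 1.002 SE in MEP cells, a difference of -6.80 ± 1.06 SE (adjusted p = 0.00119). MEP cells are sorted as negative for the product of Ly6a in the usual gate. Itga2b, the platelet integrin CD41, was at -0.23 and 2.95 (difference -3.13 ± 0.51 SE, adjusted p = 0.0016), and Plek, pleckstrin of platelets, at -0.23 and 3.66 (-3.85 ± 0.77 SE, adjusted p = 0.0144). Of 38 megakaryocyte and platelet genes 9 differed, all with the lower value in LSK, and of 39 stem cell genes 5 did, among them Meis1 (-2.73 ± 0.53 SE, adjusted p = 0.0128). Plasma cell genes moved with these in MEP cells, Igkc by 6.05 ± 1.32 SE, and their part was not tested.

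Other genes differed in the opposite direction, with the lower value in MEP cells. Podxl was at -4.92 ± 0.38 SE in MEP and -1.43 ± 0.37 SE in LSK cells (difference 3.55 ± 0.46 SE, adjusted p = 6.19e-05). Fabp5, a fatty acid carrier, was at -3.67 in MEP and -0.12 in LSK cells (3.61 ± 0.41 SE, adjusted p = 8.91e-06), and Rrm2, a subunit of ribonucleotide reductase, at -2.27 and 0.04 (2.37 ± 0.40 SE, adjusted p = 0.00195). Of 36 mitosis and spindle genes 6 differed, all with the higher value in LSK, among them Cdc20 (3.70 ± 0.76 SE, adjusted p = 0.0178), which itself was at 16.5 and 24.1 CPM in LSK day 7 replicates 3 and 2 and at 170 and 233 CPM in replicates 1 and 4. Ptgr1 rose in LSK cells and was -0.58 ± 0.30 SE in MEP cells (1.93 ± 0.40 SE, adjusted p = 0.0202).

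Of the 30 granulocyte and monocyte progenitor genes 1 differed between the cell types, the lysozyme gene Lyz2, at 0.05 in LSK and 2.98 in MEP cells (difference -2.89 ± 0.58 SE, adjusted p = 0.0145), and of the late neutrophil genes 0 did. The differences given next did not pass the test. S100a8 was at 5.10 ± 0.49 SE in LSK and 5.37 ± 0.69 SE in MEP cells, with a difference of -0.22 ± 0.76 SE. Elane was at 2.58 and 1.30 (difference 1.32 ± 0.79 SE), and Gzmb at 2.34 and 2.22 (0.18 ± 0.65 SE). Levels of these 3 genes were low in MEP cells. Their MEP means in vehicle and at day 7 were 0.318 and 13.7 CPM for S100a8, 0.525 and 1.30 CPM for Elane and 1.06 and 4.93 CPM for Gzmb. In LSK cells the Elane means were 264 and 1575 CPM. Slc4a1 was at -3.61 and -4.27 (0.70 ± 1.31 SE), Tfrc at -1.89 and -3.25 (1.43 ± 0.50 SE) and Cish at -1.61 and -3.89 (2.33 ± 0.60 SE, adjusted p = 0.0725). The SEs are wide, and a p that misses the threshold does not show that the cell types responded alike.

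**Figure D5:**
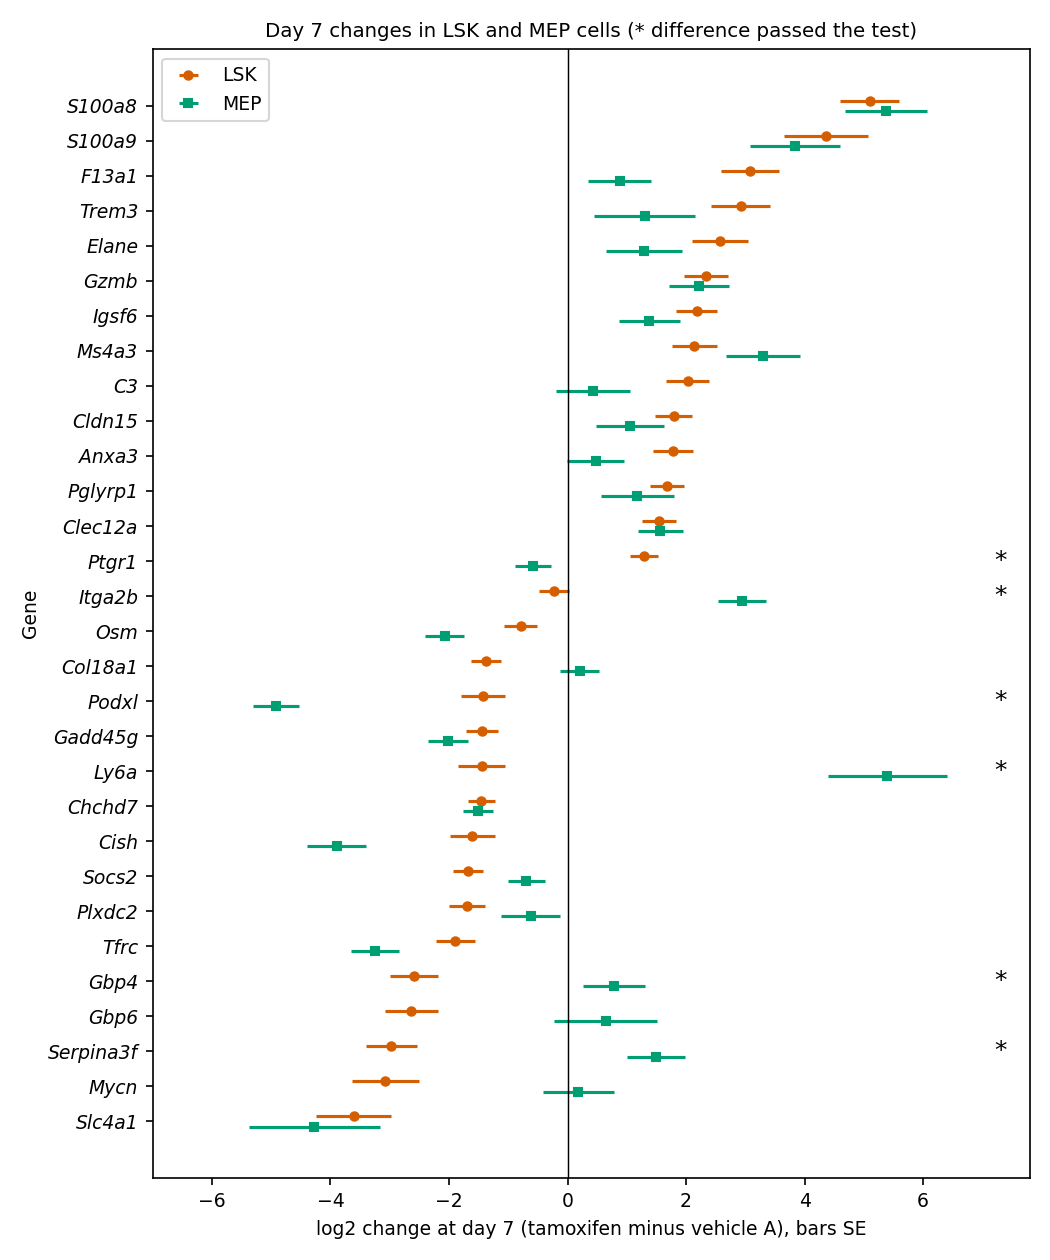
Fitted log2 change at day 7 against vehicle A in LSK cells (orange circles) and MEP cells (green squares) with SE bars, for the 25 named called genes and Cish, Osm, Podxl, Ly6a and Itga2b, where an asterisk marks a difference between cell types that passed the test. The asterisks stand at Ptgr1, Itga2b, Podxl, Ly6a, Gbp4 and Serpina3f, and the S100a8 values of 5.10 and 5.37 lie together.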

How the data were processed

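Per the submitters' processing notes, reads were aligned with STAR to mm10 and counted with featureCounts, and the authors deposited raw counts per gene symbol. The sources used here give no tool versions, annotation or strand setting. The library kit was Takara HT-Seq, read in pairs (per the labels' protocols). The table held 33924 genes. The 16 LSK libraries were fitted with a mean per group in edgeR 4.0.16 (R 4.3.3), with TMM scaling, the filterByExpr filter (minimum count 10), the two-sided quasi-likelihood test and Benjamini-Hochberg adjustment at 0.05; the MEP comparison used all 32 libraries. Total counts of the 8 libraries were 13392754 to 28838622, and deeper libraries measure low genes more precisely. Chi-square statistics for pairs within the vehicle A group and within the day 7 group showed no duplicated library. Libraries of different groups were not compared in this way. The script was tested on simulated data.

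The samples, gene lists, tests and rule for naming were chosen with earlier results of these data known. The rule names Jak2, then called genes with mean logCPM of at least 2 and no overlap between groups, up to 15 per direction and without unnamed transcripts or immunoglobulin segments, a STAT5 panel, and up to 6 called members of each list (the 2 most abundant where none was called); other genes were chosen after their values were seen. Positions are from GENCODE M21 (91.4% of symbols matched), and promoters from RefSeq. Expressed genes have a mean CPM of at least 10. Alternatives were RLE factors, DESeq2 1.42.0, other filters, fewer libraries, a replicate block, pooled vehicles and, added after seeing the data, a GC offset.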

Additional observations from a re-analysis of the deposited data

Results flagged for a closer look

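Among 192 groups of 4 libraries checked for a library standing apart, 23 were flagged (12%). The rule flags about 1 in 20 only for normally distributed values. CPM values need not be so distributed, and some genes were named after their values were seen. The share expected by chance is therefore not known here. In the vehicle libraries the highest library stood apart for S100a9 (3.92 CPM, replicate 3), Socs3 (53.5 CPM, replicate 2), Kit (1369 CPM, replicate 2), H2-D1 (5157 CPM, replicate 2), Stat3 (768 CPM, replicate 2), Igj (3568 CPM, replicate 4), Igkc (7338 CPM, replicate 4), Vcam1 (1521 CPM, replicate 3) and Emr1 (121 CPM, replicate 3). The lowest stood apart for Igsf6 (11.8 CPM, replicate 1), Klf1 (2.46 CPM, replicate 1) and Id1 (2.47 CPM, replicate 3). Among summed levels, the stem cell genes (8366 CPM) and the granulocyte and monocyte progenitor genes (9073 CPM) stood apart in vehicle replicate 2 and the macrophage genes (6903 CPM) in replicate 3. At day 7 replicate 4 was the high library for H2-D1 (2620 CPM), Stat3 (295 CPM), Pim2 (31.6 CPM), Klf1 (23.8 CPM) and Apoe (126 CPM), replicate 3 for Tfrc (136 CPM) and Pim1 (7.18 CPM), and replicate 1 for Vcam1 (132 CPM).

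Tested differences between the LSK and MEP responses at day 7, as log2 values with the LSK response first, were positive for Cdc20 (3.70), Fabp5 (3.61), Podxl (3.55), Rrm2 (2.37) and Ptgr1 (1.93). They were negative for Igkc (-10.07), Igj (-8.26), Ly6a (-6.80), Serpina3f (-4.39), Il2rb (-4.40), Plek (-3.85), Iigp1 (-3.81), Serpina3g (-3.66), Gbp4 (-3.32), Gbp9 (-3.20), Itga2b (-3.13), Rtp4 (-3.03), Lyz2 (-2.89), Slfn2 (-2.81), Meis1 (-2.73) and Irf7 (-2.01). Between day 7 and day 3 of tamoxifen, mt-Rnr1 (2.69) and Il18bp (-2.85) differed.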

How the results depend on the processing

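None of the log2 changes named reversed a call, but among named genes other than Jak2, 198 gene-by-setting checks lost a call and 87 gained one. S100a8 was called in 16 of 17 alternatives and every other called gene in fewer, down to Gadd45g in 6 of 17, Col18a1 in 5 of 17 and Camp in 5 of 15. With 1 library left out, Camp was called in 1 of 8 fits, and Elane, Ms4a3, C3, Mycn, Clec12a, Ptgr1 and Col18a1 in 2 of 8. The count of 28 called genes (15 higher, 13 lower) was 334 (56 and 278) with DESeq2, 54 (34 lower) without a count filter, 64 (41 and 23) over expressed genes, 68 (37 and 31) with a GC offset chosen after seeing the data, 9 (7 and 2) with the 8 libraries alone, 55 (26 and 29) with pooled vehicles and 18 (6 higher) without vehicle replicates 2 and 4, and was within 1.5 times the full count with RLE factors. The pooled vehicles held animal numbers 12 and 18 from both batches, and each library was counted as independent. Leaving out 1 library gave 2 to 911 genes (1 to 48 higher, 1 to 863 lower). With the replicate number as a block the count was 1 (0 higher, 1 lower). Deviations of same-numbered libraries correlated at -0.098 to 0.0216, and those of differently numbered ones at -0.235 to 0.161. With 4 libraries per group these values cannot decide whether the numbers are a pairing. The 2 genes differing between day 7 and day 3 became 308 (43 and 265) with DESeq2, 16 (2 and 14) without a filter and 213 (32 and 181) over expressed genes, and 2 to 797 (1 to 20 higher, 1 to 777 lower) without 1 library. The single gene differing from the ruxolitinib response became 26 (11 and 15), 2 (1 higher) and 5 (4 higher) in these settings, and 1 to 322 (0 to 11 higher, 1 to 311 lower) without 1 library. The 130 genes differing from MEP became 231 (70 and 161) with RLE factors, 897 (377 and 520) with DESeq2 and 1070 (553 and 517) over expressed genes, and 48 to 275 (13 to 175 higher, 35 to 146 lower) without 1 library. The median of all genes was 0.0664 with the block. That of the STAT5 targets was -0.50 with the block, -0.65 without vehicle replicates 2 and 4 and -1.04 to -0.67 without 1 library. The late neutrophil median was 3.47 over expressed genes and 3.41 with the offset (2 genes). The macrophage median, -2.17, was 0.32 without vehicle replicate 3 and -2.64 to -1.97 without another library. Without vehicle replicates 2 and 4, Serpina3f was -1.84, S100a9 3.78, Elane 3.19 and F13a1 4.01. The cause of these shifts was not tested. Depth limits low genes such as Camp, near 1 CPM in vehicle.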

Other observations

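The Y-linked gene Eif2s3y, chosen after its values were seen, was at 2.62 CPM in vehicle replicate 1 and at 35.3, 30.7 and 61.9 CPM in vehicle replicates 2, 3 and 4, against 1.30 to 2.08 CPM in the day 7 libraries (-4.26 ± 1.005 SE, edgeR adjusted p = 0.12). The batch C vehicle libraries with animal numbers 12 and 18, the numbers of replicates 1 and 2, were at 2.67 and 26.7 CPM. The Y-linked genes Ddx3y (55.9 to 140 CPM) and Uty (34.9 to 71.5 CPM) were present in all 8 libraries. The eosinophil gene Prg2 was high in both vehicle LSK libraries with animal number 12, at 4122 CPM in batch A and 5297 CPM in batch C.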
